A study of Mus musculus with 24 samples.

Results

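The retina of mice lacking Nrl was followed from postnatal day 10 (P10) to the adult age of 2 months. Its data are 8 of the 24 Affymetrix arrays of the series, 4 of knockout retina at P10 and 4 of knockout retina at 2 months, taken by their labels and not by any measured value. All 12422 probe sets that are not array controls were compared, and 8251 genes were named from them. The 4 wild-type arrays at each of the same ages were used to ask whether a change with age differed between genotypes, and the arrays of postnatal day 2 (P2) entered only the estimate of the spread. Each array measured total RNA of whole retina. Knockout and wild-type animals shared a mixed background of the R1 and C57BL/6 strains. All 8 arrays described here carry the knockout, whose allele the labels do not describe. Whether 1 animal or several made up a replicate, their sex and the hour of collection are not in the labels, so p-values reflect only how much these samples vary.

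Nrl is a transcription factor of the rod lineage. Without it, cells that would have become rods take on features of short-wavelength (S) cones, so the outer retina is filled with cone-like photoreceptors and lacks working rods. Between P10 and adulthood photoreceptors normally extend their outer segments, the membrane stacks that hold the visual pigment, while the synaptic layers are completed and neurons stop growing neurites. Müller glia, the radial support cells of the retina, take up potassium, water and glutamate, and respond to damage by raising intermediate filament, acute-phase and metal-binding genes.

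Levels below are RMA intensities, as mean ± SD (n = 4). Changes are log2 values at 2 months minus those at P10, ± standard error. A gene was called when its adjusted p in limma was under 0.05, and "rose" and "fell" are used for called genes. In knockout retina 768 genes rose, which is 9.31% of those tested, and 1077 fell, which is 13.1%. Of these, 79 rose and 60 fell at least 2-fold. In wild-type retina 691 genes rose (8.37%) and 756 fell (9.16%) over the same interval. The difference between the age effects, knockout minus wild type, was positive for 121 genes (1.47%) and negative for 110 (1.33%). Over all genes the median log2 change was 0.0047 in knockout retina.

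Nrl itself was measured by a probe set that is not known to lie in the deleted part, so its signal alone does not check the deletion. It stood at 44.6, 56.2, 46.7 and 51.5 at P10 and 54.2, 52.8, 62.7 and 48.3 at 2 months, and the ages overlapped. In wild-type retina Nrl averaged 135 ± 14.4 at P10 and 145 ± 29.3 at 2 months, and every knockout value lay below every wild-type value. As a check of the label, rod transducin Gnat1 stood at 23.1, 10.8, 12.9 and 11.7 at P10 and 67.8, 12.9, 14.8 and 13.6 at 2 months, so that 7 of the 8 arrays lay between 10.8 and 23.1 and 1 array, replicate 1 at 2 months, at 67.8. It was not called between ages (log2 0.55 ± 0.35, adjusted p = 0.357), but was with array weights (log2 1.02, adjusted p = 0.0232). Without that array 2197 probe sets were called between the knockout ages, against 2389 with it. In wild-type retina the same gene averaged 1249 ± 404 at P10 and 5386 ± 562 at 2 months. In bulk tissue, fewer cells of a type and less RNA per cell cannot be told apart. Nor can an effect of age be told apart from one of a batch made up of arrays of 1 age. The 8 array medians lay between 69.1 and 71.7. The ratio of 3′ to 5′ actin control signal, a measure of RNA length, was higher at 2 months in all 4 arrays, by 0.18 on the log2 scale (exact two-sided permutation p = 0.0286, the smallest that 4 against 4 arrays allow, and 0.10 adjusted over 7 such measures). The same ratio of the Gapdh control differed by 0.020 (exact two-sided permutation p = 0.629, adjusted p = 0.767). The part of RNA length in the results was not tested.

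Cone phototransduction genes increased. Of 6 measured cone genes 4 rose, against 9.31% of all genes, with a median log2 change of 0.63. Opn1mw, the medium-wavelength (M) opsin, stood at 99.3, 69.9, 77.0 and 73.1 at P10 and 469.8, 500.0, 741 and 811 at 2 months. The lowest adult value was several times the highest P10 value, and the change was 2.95 ± 0.17 (adjusted p = 1.22e-13), a 7.75-fold difference. Opn1sw, the S opsin that is the main pigment of these cells, stood at 3623, 4173, 3665 and 4148 at P10 and 6908, 7253, 7102 and 7226 at 2 months. It was already bright at P10, its ages did not overlap, and it rose 1.83-fold (log2 0.87 ± 0.12, adjusted p = 3.61e-06). Gnat2, the alpha subunit of cone transducin, stood at 881, 903, 997 and 959 at P10 and 2123, 2561, 1911 and 2761 at 2 months, a log2 change of 1.31 ± 0.13 (adjusted p = 9.12e-09). Gngt2, the cone gamma subunit, rose less, from 709 ± 24.1 to 889 ± 38.3. Gnb3, the cone beta subunit, had 2968, 3461, 3653 and 4021 at P10 and 3734, 4428, 4990.4 and 5378 at 2 months, with overlapping ages, and did not pass (log2 0.39 ± 0.15, adjusted p = 0.0644). It lay close to the threshold, and passed without P10 replicate 4 or 2 month replicate 1 (adjusted p from 0.0252 to 0.0474), and also with quantile normalisation, a filter on dim probe sets or only the compared arrays (adjusted p = 0.0451, 0.0464 and 0.0235).

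**Figure D1:**
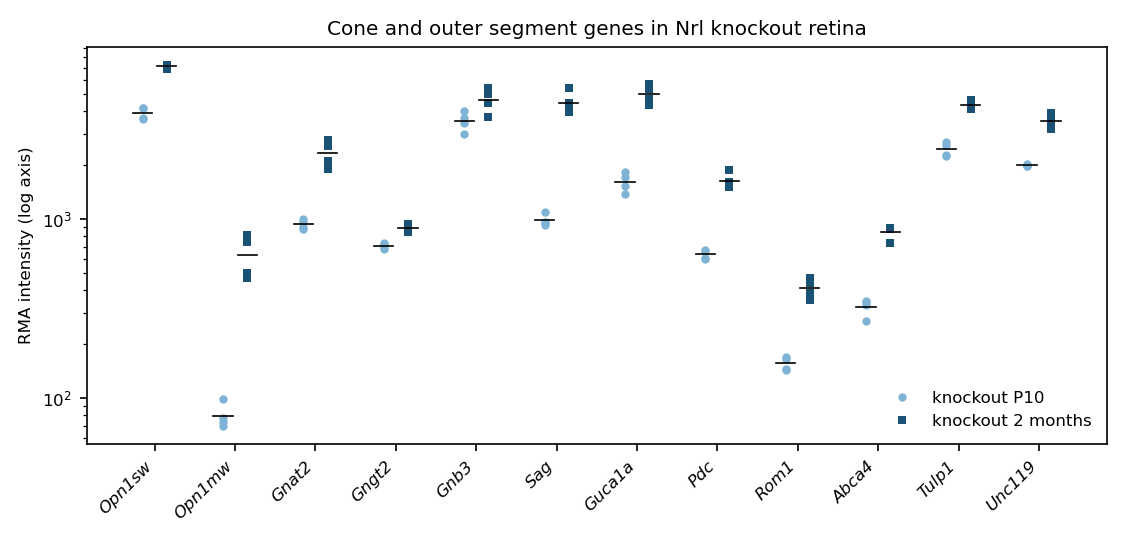
Deposited RMA intensity (log axis) of 12 cone and outer segment genes in each knockout array at P10 (circles) and 2 months (squares), with horizontal bars at the means of 4 arrays. The ages are separate for 11 of the genes and overlap for Gnb3, and Opn1mw shows the widest gap.

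Genes of the outer segment that rods and cones share moved the same way. Among 15 measured members 12 rose and 1 fell, with a median log2 change of 0.81. Guca1a, which activates the guanylate cyclase that restores cGMP after light, stood at 1381, 1719, 1825 and 1536 at P10 and 4356, 4695, 5309 and 5713 at 2 months. No adult value came near a P10 value (log2 1.64 ± 0.19, adjusted p = 1.97e-07). Abca4, a lipid transporter of disc membranes, rose from 323 ± 36.9 to 847 ± 76.1, and Rom1, a protein of disc rims, from 156 ± 13.6 to 410.0 ± 50.5. Pdc, phosducin, which binds transducin beta and gamma, rose from 636 ± 37.4 to 1624 ± 171 (log2 1.35 ± 0.10). Tulp1, which carries proteins to the outer segment, rose from 2455 ± 223 to 4338 ± 217. Both chaperones of lipid-modified phototransduction proteins on the list rose, Unc119 from 1996 ± 23.9 to 3509 ± 307 and Pde6d from 481 ± 42.4 to 859 ± 106. Smaller rises were seen for Rcvrn, recoverin (log2 0.42 ± 0.11), Gucy2e, a photoreceptor guanylate cyclase (log2 0.32 ± 0.083), and Rgs9, which ends the transducin signal (log2 0.35 ± 0.10). The single member that fell was Rpgr, a protein of the connecting cilium, from 51.2 ± 8.71 to 33.9 ± 6.99.

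Rod genes were not uniformly silent. Of 10 measured members 5 rose. Sag, the arrestin named for rods and also made by cones, stood at 956, 1092, 959.8 and 930.0 at P10 and 3970.2, 4436, 4009.5 and 5397 at 2 months, a 4.50-fold rise (log2 2.17 ± 0.17, adjusted p = 1.68e-10). The ages were far apart in every array. Pde6g, the inhibitory subunit of the rod phosphodiesterase, was also bright and rose from 2169.9 ± 71.8 to 3191 ± 327. The catalytic subunits were dimmer: Pde6b rose from 28.8 ± 7.13 to 70.02 ± 11.6 and Pde6a from 72.4 ± 11.99 to 114 ± 6.36. Reep6, which serves membrane traffic in rods, rose from 117 ± 4.98 to 194 ± 18.2. Cnga1, the rod channel subunit, stayed near the low end of the scale at 16.2 ± 0.942 at P10 and 17.4 ± 2.13 at 2 months and did not pass (adjusted p = 0.653).

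The upstream sequences of Gnat2, Guca1a and Sag are shown because each holds the core letters TAATCC of the site bound by Crx, the photoreceptor homeobox factor, in 1 strand or the other. They are the 100 bases before the transcription start in RefSeq on mouse assembly GRCm38.p6, 5′ to 3′ in the direction of the gene, with the match in capitals (GGATTA is the same site on the opposite strand). Gnat2 lies at chr3:108092966-108093065 on the plus strand, Guca1a at chr17:47400607-47400706 on the minus strand and Sag at chr1:87803580-87803679 on the plus strand.
Gnat2: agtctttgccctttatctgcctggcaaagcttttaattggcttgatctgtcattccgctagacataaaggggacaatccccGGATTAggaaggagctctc
Guca1a: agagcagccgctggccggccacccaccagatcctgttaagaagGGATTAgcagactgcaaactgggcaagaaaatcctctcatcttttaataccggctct
Sag: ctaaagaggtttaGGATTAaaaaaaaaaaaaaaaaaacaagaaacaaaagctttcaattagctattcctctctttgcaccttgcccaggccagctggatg
The first bases of the matches lie 19, 57 and 87 bases before the start. Within 250 bases upstream, TAATCC on either strand was found for 1 of 4 cone genes, 5 of 13 shared photoreceptor genes and 2 of 6 rod genes with a sequence, against 6.25% of all 32851 mouse sequences of that length. A listed gene counted if any of its sequences matched, while the share is over single sequences, so these are not like for like. A match is a description and not a shown binding site.

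Transcription factors of photoreceptors went both ways. Of 13 measured members 3 rose and 6 fell, with a median log2 change of -0.021. Rora, a nuclear receptor that activates cone opsin genes, rose from 89.2 ± 11.3 to 157 ± 30.6. Neurod1, a factor of photoreceptor survival, stood at 139.8, 165, 143 and 152 at P10 and 191, 207, 179.6 and 208 at 2 months, with no overlap (log2 0.39 ± 0.10, adjusted p = 0.00483). Crx stood at 1334, 1306, 1188 and 1236 at P10 and 1569, 1493, 1367 and 1632 at 2 months (log2 0.26 ± 0.079, adjusted p = 0.0188), and lost its call without P10 replicates 3 or 4 or 2 month replicates 1 or 4 (adjusted p from 0.0521 to 0.0692). Fallers included Thra, the thyroid hormone receptor alpha, from 1328 ± 38.0 to 804 ± 58.5, and Pias3, a SUMO ligase that acts with Nr2e3 and Crx, from 269 ± 28.5 to 152 ± 16.3. The developmental factors Nr2f1 and Rax fell from 46.4 ± 5.23 to 27.6 ± 5.16 and from 608 ± 28.2 to 490.1 ± 37.8, and Sall3, a zinc finger factor of cones, from 292 ± 37.5 to 230.1 ± 6.01.

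The largest rises were spread over several functions. Sgk1, a kinase induced by glucocorticoids and osmotic stress, stood at 22.1, 22.5, 20.4 and 23.3 at P10 and 176, 175, 138 and 222 at 2 months, a 7.96-fold difference (log2 2.99 ± 0.11, adjusted p = 7.72e-18). Vtn, vitronectin, an adhesion protein that photoreceptors make, had 167, 171, 195 and 170.2 at P10 and 1093, 1088, 1049 and 1359.8 at 2 months (log2 2.70 ± 0.095). Gzmm, granzyme M, rose from 185 ± 22.9 to 979 ± 125, and Drd4, the dopamine D4 receptor that photoreceptors carry, from 128 ± 3.16 to 469 ± 69.2. Folh1, a glutamate carboxypeptidase, rose from the bottom of the scale, from 8.53 ± 0.652 to 33.7 ± 9.95. Clca1, of a family of chloride channel regulators with similar copies, so that its probe set may read more than 1 of them, rose from 85.9 ± 11.1 to 447 ± 57.6, and another probe set was not called (log2 0.33).

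Genes of glycolysis rose as well. Of 21 measured glycolysis genes 13 rose and 3 fell, with a median log2 change of 0.38. Hk2, the hexokinase that photoreceptors use, stood at 158, 172, 171 and 166 at P10 and 1219, 1111, 1352 and 1638 at 2 months, a 7.90-fold rise (log2 2.98 ± 0.11, adjusted p = 1.56e-17), while a dimmer probe set of Hk2 was not called (log2 0.0014). Pygm, muscle-type glycogen phosphorylase, which releases glucose units from glycogen, stood at 98.5, 117, 123 and 101 at P10 and 715, 701, 593 and 799 at 2 months (log2 2.68 ± 0.15, adjusted p = 1.28e-13). In both genes every adult value was several times every P10 value. Aldoc and Aldoa, 2 aldolases, rose from 365 ± 87.8 to 1115 ± 81.8 and from 2292 ± 172 to 3675 ± 228. Eno2, neuronal enolase, rose from 465 ± 28.2 to 999 ± 84.4. Slc16a1, a lactate transporter, rose from 11.4 ± 0.607 to 17.9 ± 2.41. Of 49 respiratory chain genes 1 rose and 7 fell, against 9.31% and 13.1% of all genes, with a median of -0.041. Sdha, a subunit of succinate dehydrogenase, rose from 53.6 ± 3.19 to 90.2 ± 13.5, while Atp5o, an ATP synthase subunit, fell from 1202 ± 88.6 to 792 ± 83.1. Of 21 genes of sterol and fatty acid synthesis 3 rose and 3 fell, among them Elovl6, a fatty acid elongase (log2 0.56 ± 0.10), and Fasn, fatty acid synthase (log2 -0.49 ± 0.083).

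Both metallothioneins, small proteins that bind zinc and copper and absorb oxidants, increased. Mt1 stood at 184, 157, 175 and 172 at P10 and 799.9, 623, 736 and 995 at 2 months (log2 2.18 ± 0.10, adjusted p = 1.95e-15). Mt2 stood at 105, 91.8, 98.4 and 92.7 at P10 and 348, 330.4, 269 and 377 at 2 months (log2 1.76 ± 0.087, adjusted p = 6.54e-15). The ages did not overlap for either, and both genes also rose in wild type, Mt1 from 183 ± 14.0 to 564 ± 32.7 and Mt2 from 109 ± 8.08 to 268 ± 17.0. Their starts lie 6471 bases apart, and their upstream sequences are shown because metal response elements are the known switch of both genes. The sequences are the 250 bases before the start in RefSeq on GRCm38.p6, Mt1 at chr8:94178839-94179088 and Mt2 at chr8:94172368-94172617, both on the plus strand. Capitals mark the element's core, TGCACNC or TGCGCNC, on either strand.
Mt1: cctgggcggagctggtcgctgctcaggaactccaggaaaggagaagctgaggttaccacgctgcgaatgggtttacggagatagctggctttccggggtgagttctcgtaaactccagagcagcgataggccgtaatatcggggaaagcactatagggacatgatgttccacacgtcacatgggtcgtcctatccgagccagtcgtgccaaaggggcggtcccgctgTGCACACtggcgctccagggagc
Mt2: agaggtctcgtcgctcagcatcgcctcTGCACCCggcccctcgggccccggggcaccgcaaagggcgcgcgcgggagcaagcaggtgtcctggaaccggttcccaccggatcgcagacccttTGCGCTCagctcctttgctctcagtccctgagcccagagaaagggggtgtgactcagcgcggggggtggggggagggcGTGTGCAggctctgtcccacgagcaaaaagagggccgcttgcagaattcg
Within these 250 bases Mt1 held 1 match, 23 bases before the start, and Mt2 held 3, at 223, 128 and 50 bases. Sequence past the annotated start was not searched, so the counts do not describe the whole promoter of either gene. The core was present in 21.4% of all 32851 sequences of this length, so a single match is common. The oxidative stress and metal list to which they belong was divided: 6 of 28 rose and 5 fell, with a median of 0.0095. Srxn1, sulfiredoxin, rose from 83.3 ± 4.59 to 124 ± 7.78. The peroxiredoxins Prdx2 and Prdx4 fell from 1665 ± 49.5 to 1127 ± 72.4 and from 66.6 ± 5.65 to 41.4 ± 2.58, and Txn1, thioredoxin, from 657 ± 24.7 to 366 ± 28.7.

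Müller glia genes showed large rises in a few members. Of 13 measured 6 rose and 1 fell, with a median of 0.11. Clu, clusterin, a secreted chaperone, stood at 225, 211, 239.7 and 213 at P10 and 1725, 1344, 1330.0 and 1462 at 2 months (log2 2.71 ± 0.095, adjusted p = 5.76e-18). Aqp4, the glial water channel, stood at 33.8, 42.8, 34.2 and 36.6 at P10 and 212, 235, 181 and 209 at 2 months (log2 2.51 ± 0.13, adjusted p = 1.50e-14). Neither gene's ages came near to overlapping. Glul, glutamine synthetase, which detoxifies glutamate, rose from 208 ± 11.3 to 629.8 ± 84.8, and Dkk3, a secreted protein of the dickkopf family, from 645 ± 35.1 to 1069.8 ± 172. Car2, a carbonic anhydrase, rose from 1127 ± 41.9 to 1508 ± 87.3. Crym, a thyroid hormone binding protein, fell from 522 ± 50.03 to 181 ± 16.9.

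Many genes of reactive glia and injury rose. Of 23 measured 13 rose, against 9.31% of all genes, and 1 fell, with a median log2 change of 0.31. Gfap, the intermediate filament that marks reactive astrocytes and Müller glia, stood at 53.9, 54.6, 51.8 and 53.3 at P10 and 93.1, 98.8, 80.1 and 89.8 at 2 months (log2 0.76 ± 0.089, adjusted p = 1.91e-07). Its highest P10 value was below its lowest adult value. Serpina3n, an acute-phase protease inhibitor, stood at 122, 112, 117 and 116 at P10 and 367, 306, 233 and 269 at 2 months (log2 1.31 ± 0.10, adjusted p = 9.26e-11). Osmr, the oncostatin M receptor, stood at 18.4, 15.2, 14.2 and 16.02 at P10 and 48.8, 37.0, 32.6 and 51.9 at 2 months, and A2m, the protease trap alpha-2-macroglobulin, at 21.5, 19.5, 19.3 and 19.8 at P10 and 66.4, 46.1, 43.1 and 43.5 at 2 months. Both were dim at P10, and their adult values lay clear of those. S100a6, a calcium-binding protein, rose from 47.7 ± 2.34 to 137 ± 26.9, and Cebpd, a transcription factor of the acute phase, from 49.3 ± 6.15 to 188 ± 38.6. In the cytokine pathway shared by Osmr and Il6st, Il6st rose from 68.7 ± 6.75 to 99.6 ± 12.7, Stat3, its transcription factor, from 243 ± 8.26 to 317 ± 24.6, and Socs3, its feedback inhibitor, from 132 ± 12.8 to 221 ± 30.4. Smaller rises were measured for Cp, ceruloplasmin (log2 0.45 ± 0.11), Cd44, an adhesion receptor (log2 0.31 ± 0.084), and Ednrb, the endothelin B receptor (log2 0.31 ± 0.086). The member that fell was Nes, nestin, a filament of progenitors, from 119 ± 5.61 to 79.8 ± 8.86.

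The difference of the age effect between genotypes was called for 7 of these 23 genes, each of them positive, against 1.47% of all genes positive. In wild type 5 of the 23 rose and 1 fell, or 7 rose with the replicate number as a block. In wild-type retina Serpina3n stood at 95.5 ± 6.35 at P10 and 103 ± 7.77 at 2 months, A2m at 22.3 ± 1.19 at P10 and 24.9 ± 2.16 at 2 months, Osmr at 16.5 ± 1.69 at P10 and 20.3 ± 2.85 at 2 months and Gfap at 54.7 ± 7.04 at P10 and 59.3 ± 2.76 at 2 months, and none of the 4 passed there, although Osmr did with the replicate number as a block (adjusted p = 0.0399). The differences, knockout minus wild type, were 1.21 ± 0.15 for Serpina3n (adjusted p = 2.54e-06), 1.13 ± 0.15 for A2m (adjusted p = 8.74e-06), 1.10 ± 0.18 for Osmr (adjusted p = 1.71e-04) and 0.63 ± 0.13 for Gfap (adjusted p = 0.00274). A further probe set of Gfap gave 0.35, which was not called. S100a6 also rose in wild type, from 43.4 ± 2.57 to 63.1 ± 5.09, and its difference was 0.97 ± 0.16 (adjusted p = 2.82e-04). The remaining members were Cebpd and Socs3. In wild type Cebpd also rose, from 43.0 ± 5.20 to 84.9 ± 12.2. Cebpd had a difference of 0.94 ± 0.23 (adjusted p = 0.0192), not called without knockout P10 replicate 4, knockout 2 month replicates 1 or 4, wild-type P10 replicate 2 or wild-type 2 month replicate 1 (adjusted p from 0.0505 to 0.0575). Socs3 had 0.53 ± 0.13 (adjusted p = 0.0257), not called without knockout P10 replicates 2 or 4, knockout 2 month replicates 1 or 4, wild-type P10 replicates 2 or 3 or wild-type 2 month replicates 2 or 3 (adjusted p from 0.0529 to 0.0788). Of the Müller glia genes, Clu (1.02 ± 0.13, adjusted p = 1.00e-05) and Aqp4 (0.90 ± 0.18, adjusted p = 0.00340) rose in both genotypes and more in the knockout.

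**Figure D2:**
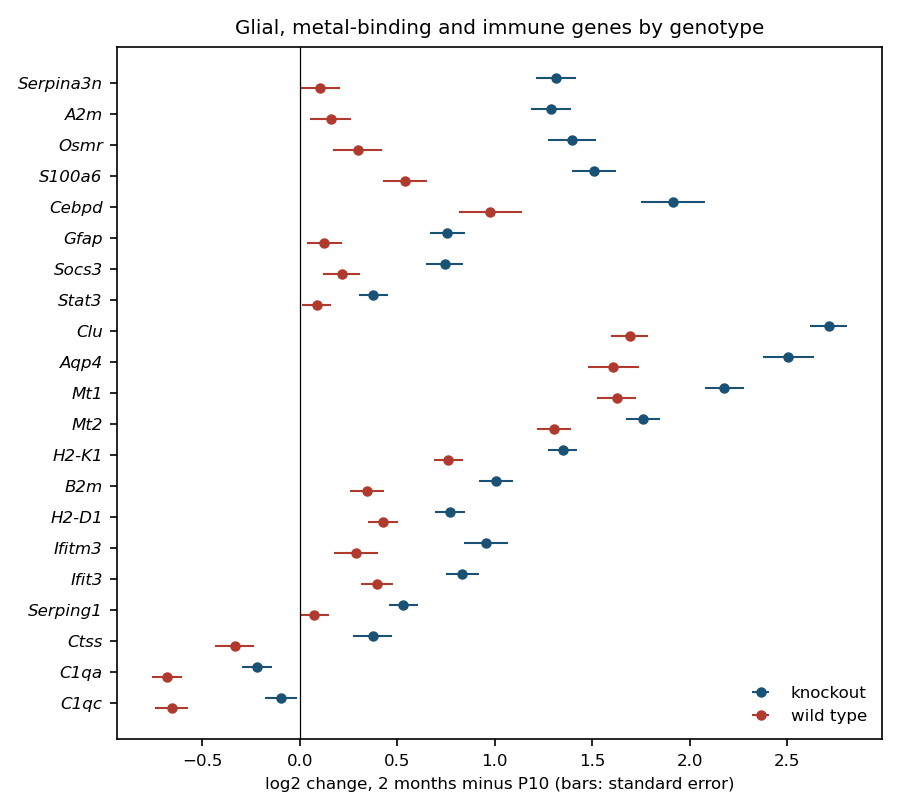
Change with age on the log2 scale (2 months minus P10, bars are standard errors of the fit, 4 arrays a group) for 21 glial, metal-binding and immune genes in knockout (blue) and wild-type (red) retina. Serpina3n, A2m and Osmr lie above 1 in the knockout and below 0.5 in wild type, while C1qa, C1qc and Ctss lie below 0 in wild type.

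Microglia, the resident macrophages, showed little net change in the knockout. Of 25 measured markers 2 rose and 1 fell, and their summed intensity ran from 1537 to 1629.8 at P10 and from 1528 to 1664 at 2 months. The defining markers Aif1, Csf1r and Cd68 stood at 59.0 ± 4.19 at P10 and 56.8 ± 7.32 at 2 months, 133 ± 14.9 at P10 and 147 ± 18.5 at 2 months and 51.4 ± 2.90 at P10 and 49.3 ± 3.34 at 2 months, and did not pass. Ctss, a lysosomal protease of microglia, rose from 62.3 ± 3.35 to 81.1 ± 9.18. Cd14, a receptor for bacterial lipid, rose from 127 ± 10.5 to 166 ± 9.67 and lost its call without P10 replicate 3 (adjusted p = 0.0511). C1qa, a chain of the complement starter C1q, averaged 111 ± 7.13 at P10 and 95.2 ± 4.10 at 2 months (adjusted p = 0.0452), and lost its call without P10 replicates 1, 2 or 3 or 2 month replicates 2, 3 or 4 (adjusted p from 0.0808 to 0.147). In wild-type retina 6 of the 25 fell. C1qc fell there from 246 ± 32.9 to 155 ± 10.2 and stood in the knockout at 213 ± 14.99 at P10 and 199 ± 6.21 at 2 months (difference 0.56 ± 0.12, adjusted p = 0.00424). The differences of Ctss and C1qa were 0.71 ± 0.14 and 0.46 ± 0.11 (adjusted p = 0.00234 and 0.0137).

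Of 9 complement genes 3 rose and 6 were not called. Cd59a, which blocks the membrane attack complex, rose from 100.2 ± 13.5 to 359.5 ± 54.5, and also rose in wild type, from 108 ± 5.52 to 352 ± 49.7. Serping1, the inhibitor of the first complement proteases, stood at 132, 112, 137 and 120.2 at P10 and 189, 176, 185 and 174 at 2 months (log2 0.53 ± 0.075, adjusted p = 3.84e-06), with no overlap. Of 29 antigen presentation and interferon genes 14 rose, against 9.31% of all genes, 1 fell and 14 were not called. Their median log2 change was 0.28. The class I heavy chain gene H2-K1 stood at 103, 94.0, 97.3 and 93.5 at P10 and 259.8, 247, 229 and 252 at 2 months (log2 1.35 ± 0.074, adjusted p = 5.58e-14). B2m, the light chain of all class I molecules, stood at 82.1, 65.9, 76.8 and 76.6 at P10 and 139, 146, 148 and 172 at 2 months (log2 1.01 ± 0.088, adjusted p = 8.61e-10). Heavy and light chain were thus both higher in every adult array. H2-D1, another class I heavy chain, rose from 217 ± 13.5 to 370.1 ± 11.3. Class I genes are near-identical copies, so the split between H2-K1 and H2-D1 is uncertain. The peptide supply genes Psmb8, an immunoproteasome subunit, and Tap2, a peptide transporter, rose from 42.7 ± 4.38 to 60.4 ± 2.73 and from 80.4 ± 4.32 to 111 ± 4.29.

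Interferon-responsive genes on the same list rose from low levels. Ifitm3, an antiviral membrane protein, stood at 81.5, 74.6, 67.5 and 81.9 at P10 and 137, 183, 113 and 167 at 2 months, with no overlap (log2 0.96 ± 0.11, adjusted p = 1.98e-07). Ifit3, which binds viral RNA complexes and has a near-identical copy, rose from 27.9 ± 1.28 to 50.03 ± 7.13. Irf9, a subunit of the factor that carries interferon signals to DNA, rose from 80.2 ± 4.98 to 119 ± 22.3. Gbp3 and Ifi35, 2 interferon-induced genes, rose from 16.2 ± 1.76 to 25.9 ± 4.86 and from 50.01 ± 2.49 to 69.3 ± 3.85. In wild type 11 of the 29 genes rose and 1 fell, or 14 rose with the replicate number as a block. The difference between genotypes was positive for 4 of the 29, against 1.47% of all genes. These included Ifitm3 (0.67 ± 0.16, adjusted p = 0.0161), B2m (0.66 ± 0.12, adjusted p = 0.00139) and H2-K1 (0.59 ± 0.10, adjusted p = 6.97e-04). B2m, H2-K1 and Ifit3 also rose in wild type, by log2 0.35, 0.76 and 0.40, and Ifitm3 only with the block (adjusted p = 0.0115). For H2-K1 the further probe sets gave 0.15 and 0.026, neither of which was called. The fourth, Ifit3, had 0.44 ± 0.12 (adjusted p = 0.0398), not called without knockout P10 replicates 1, 2, 3 or 4, knockout 2 month replicates 2 or 4, wild-type P10 replicates 1, 2 or 3 or wild-type 2 month replicates 1, 2 or 3 (adjusted p from 0.0511 to 0.114). Upstream sequences of Ifit3 and B2m, 170 bases before the RefSeq start on GRCm38.p6, are shown because both hold GAAA and GAAA again with any 2 bases between, the letters of the site that interferon regulatory factors bind (capitals, on either strand). Ifit3 lies at chr19:34583359-34583528 and B2m at chr2:122147517-122147686, both on the plus strand.
Ifit3: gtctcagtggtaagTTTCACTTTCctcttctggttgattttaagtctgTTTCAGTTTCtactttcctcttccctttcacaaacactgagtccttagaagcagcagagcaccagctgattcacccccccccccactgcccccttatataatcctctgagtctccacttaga
B2m: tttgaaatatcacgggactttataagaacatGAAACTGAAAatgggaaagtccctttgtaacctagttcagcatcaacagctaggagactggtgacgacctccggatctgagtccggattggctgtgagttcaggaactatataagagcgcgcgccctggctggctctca
Ifit3 held 2 matches, 156 and 122 bases before the start, and B2m 1, at 139 bases. Within 250 bases upstream the letters were found for 7 of the 24 list members with a sequence and in 2.98% of all 32851 mouse sequences. Here too a gene counted if any of its sequences matched, while the share is over single sequences. A further search, for the Stat-type site TTCNNNGAA, matched 1 of 20 reactive glia and injury genes with a sequence, against 7.02% of all sequences.

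Other stress genes were divided. Of 27 heat shock and unfolded protein genes 8 rose and 1 fell. Hsph1, a large chaperone of the Hsp110 family, rose from 267 ± 7.24 to 497 ± 98.4 and differed between genotypes (1.14 ± 0.14, adjusted p = 3.75e-06), with 251 ± 24.9 at P10 and 208 ± 15.04 at 2 months in wild type. Hsp90aa1 and Hspa4, cytosolic chaperones, rose from 1834 ± 157 to 2649 ± 360.4 and from 593 ± 25.8 to 801 ± 92.0. Ddit3, the stress factor CHOP, rose from 186 ± 12.6 to 343 ± 53.2, and Herpud1, of endoplasmic reticulum degradation, from 128 ± 9.49 to 186 ± 21.1. Hspa1a and Hspa1b, near-identical inducible Hsp70 copies whose separate values are uncertain, rose from 125 ± 7.62 to 194 ± 20.6 and from 60.8 ± 5.52 to 81.5 ± 13.7. Of 26 apoptosis and p53 genes 3 rose and 5 fell, against 9.31% and 13.1% of all genes, and not all of these are named here. Bcl2l2 rose from 96.0 ± 4.15 to 146 ± 11.7 and Bnip3 from 69.1 ± 8.59 to 114 ± 15.1. Bcl2l11, Apaf1 and Casp6 fell from 115 ± 6.51 to 78.0 ± 6.12, from 69.1 ± 3.09 to 47.3 ± 3.92 and from 27.0 ± 1.20 to 21.3 ± 1.47. Of 22 lysosome genes 10 rose and 2 fell, among them Ctsb, a protease, from 652 ± 22.6 to 1098 ± 77.7, Npc1, a cholesterol exporter, from 204 ± 13.6 to 311 ± 24.5, and Cst3, a protease inhibitor, from 1115 ± 36.5 to 1549 ± 105.

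**Figure D3:**
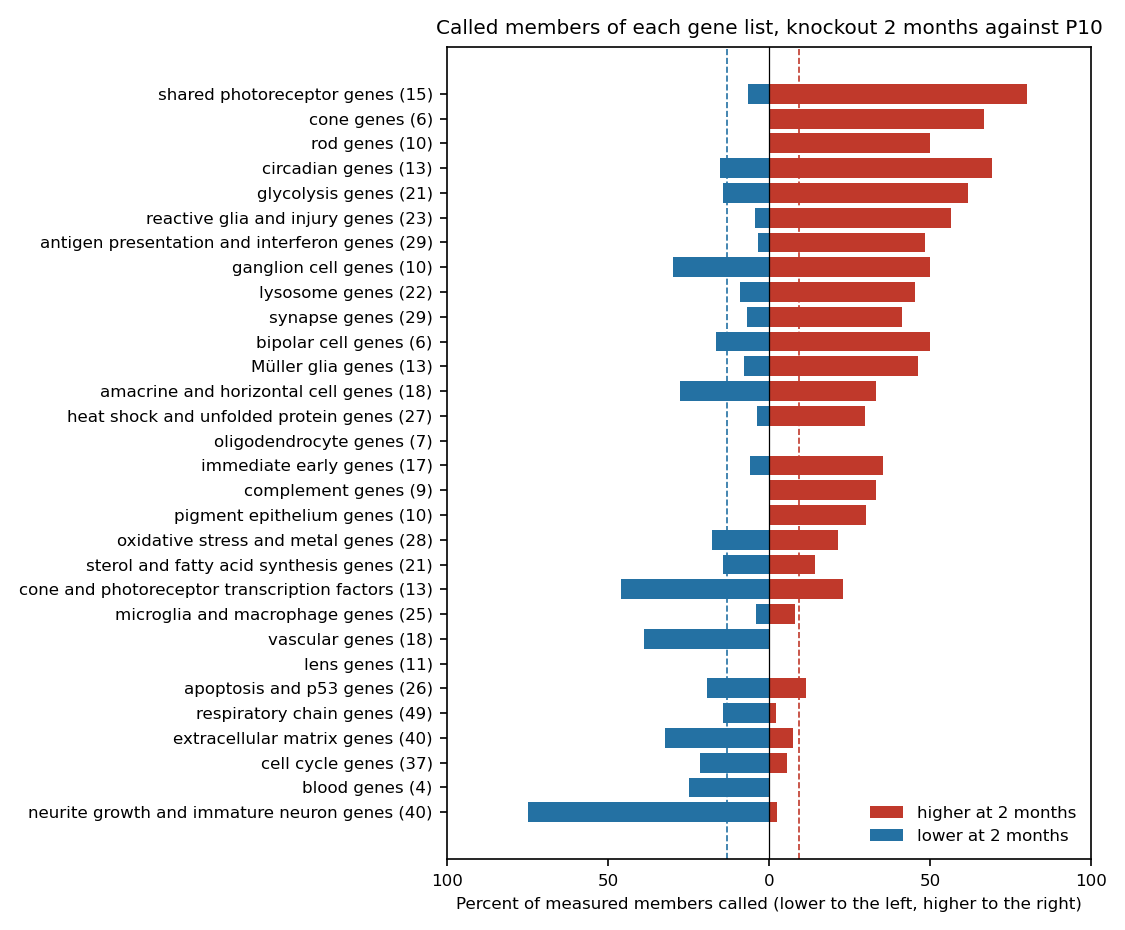
Percent of the measured members of 30 gene lists called higher (red, to the right) or lower (blue, to the left) at 2 months against P10 in knockout retina, with the number measured in brackets and lists ordered by median log2 change. Dashed lines mark the 9.31% and 13.1% of all genes called in each direction, and the longest bars are shared photoreceptor genes to the right and immature neuron genes to the left.

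Genes of immature and growing neurons fell, and made up 5 of the 15 largest falls. Of 40 measured members of that list 30 fell, against 13.1% of all genes, and 1 rose, with a median log2 change of -0.78. Nnat, neuronatin, an imprinted gene of developing brain, stood at 944, 1053, 991 and 952 at P10 and 118, 117, 127 and 124 at 2 months (log2 -3.02 ± 0.11, adjusted p = 7.24e-18). Marcksl1, a substrate of protein kinase C that binds actin, stood at 631, 757, 625 and 703 at P10 and 81.9, 86.6, 85.6 and 110.4 at 2 months, a 7.48-fold fall (log2 -2.90 ± 0.10, adjusted p = 5.76e-18). Both genes were bright in all 4 P10 arrays and dim in all 4 adult arrays. A lack of overlap was required of both as members of the 15 largest falls. Sox4, a factor of newborn neurons, fell from 583 ± 57.7 to 126 ± 6.28, and Cd24a, a surface protein of immature neurons, from 423 ± 44.6 to 82.1 ± 2.77. Marcks fell from 658 ± 67.9 to 197 ± 22.3 and Gap43, the growth cone protein, from 203 ± 17.7 to 69.5 ± 9.32. In wild type Nnat fell from 753 ± 143 to 92.6 ± 14.4 and Marcksl1 from 559 ± 52.7 to 81.9 ± 5.99, and neither difference between genotypes passed.

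Growth genes outside that list were also among the 15 largest falls. The proto-oncogenes Myb and Mycn stood at 109, 128, 112 and 139 at P10 and 21.4, 14.4, 24.7 and 31.4 at 2 months for Myb and 176, 196, 176 and 187 at P10 and 37.5, 33.1, 34.1 and 42.1 at 2 months for Mycn. Both were dim in every adult array, and a dimmer probe set of each was not called (log2 0.17 and 0.029). Mest, an imprinted gene of growth, fell from 80.2 ± 11.4 to 17.2 ± 2.86, with a log2 change of -0.88 ± 0.13 in wild type and a difference of -1.34 ± 0.18 (adjusted p = 1.30e-05). Hmgb3, a chromatin protein of progenitors, fell from 1071 ± 43.5 to 332 ± 48.1, Ndrg1, a gene of the hypoxia response, from 976 ± 25.4 to 260.3 ± 37.0, and Mfap2, a microfibril protein, from 127 ± 10.1 to 37.9 ± 0.604. Ppp1r14b, a phosphatase inhibitor, fell from 299 ± 24.1 to 98.1 ± 4.57, and D430019H16Rik from 667 ± 12.8 to 166 ± 17.0. Cell cycle genes fell in 8 of 37 and rose in 2, against 13.1% and 9.31% of all genes. Cdkn1c, the p57 inhibitor, fell from 167 ± 6.99 to 58.6 ± 11.5 and Cdk4 from 554 ± 30.1 to 292 ± 21.5. Mcm7, a replication helicase subunit, fell from 230.4 ± 10.4 to 165 ± 18.4, and Ccnd1, cyclin D1, from 118 ± 16.1 to 83.1 ± 6.06.

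More matrix and vessel genes fell than rose, as also over all genes, and most were not called. Of 40 extracellular matrix genes 3 rose and 13 fell, against 9.31% and 13.1% of all genes, and 24 were not called. Serpinh1, the collagen chaperone, stood at 216, 177, 173 and 196 at P10 and 74.9, 64.9, 52.3 and 61.5 at 2 months (log2 -1.59 ± 0.095, adjusted p = 2.94e-13), and Col4a1, a collagen of vascular basement membrane, fell from 237 ± 19.0 to 129 ± 10.9. Timp3, a metalloproteinase inhibitor, rose from 111 ± 4.07 to 224 ± 29.6, and while Sparc fell from 198 ± 15.4 to 128 ± 19.4, its relative Sparcl1, made by glia, rose from 110.1 ± 5.52 to 192 ± 11.5. Of 18 vascular genes 0 rose, 7 fell and 11 were not called. Those that fell included the endothelial junction genes Cldn5 from 217 ± 28.8 to 95.9 ± 5.67 and Cdh5 from 72.3 ± 8.22 to 45.9 ± 2.96, the endothelial receptor Eng from 229 ± 22.98 to 148 ± 5.12, and Angpt2, a ligand of growing vessels, from 35.3 ± 2.97 to 22.1 ± 1.45. In wild type 2 of the 18 rose and 7 fell. The difference between genotypes passed for 0 of the 18 in limma, and 0 had an unadjusted p under 0.05. The erythrocyte gene Hba-a1, which has a near-identical copy, fell from 754 ± 104 to 532 ± 60.2.

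Synaptic genes rose more often than they fell. Of 29 measured 12 rose and 2 fell, with a median of 0.11. Gabrr2, a GABA receptor subunit of bipolar cells, stood at 35.0, 36.9, 37.8 and 33.7 at P10 and 128, 109, 98.4 and 126 at 2 months (log2 1.68 ± 0.095, adjusted p = 1.04e-13). Cacnb2, the beta subunit of the photoreceptor calcium channel, rose from 59.4 ± 6.82 to 123 ± 11.1, and Snap25, of the vesicle fusion complex, from 1209.6 ± 49.5 to 1873 ± 143. Vamp1 and Syt2, vesicle proteins, rose from 77.7 ± 5.29 to 154 ± 21.8 and from 56.1 ± 3.47 to 115 ± 14.4. Dlg4, the scaffold PSD-95, stood at 424, 354, 335 and 379 at P10 and 621, 596, 470.1 and 587 at 2 months and differed between genotypes (0.67 ± 0.14, adjusted p = 0.00345), with 441 ± 40.6 at P10 and 421 ± 37.4 at 2 months in wild type.

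Lists of inner retinal neurons held both rises and falls. Of 6 bipolar cell genes 3 rose and 1 fell, including Car8 from 60.2 ± 5.10 to 157 ± 48.3 and Rgs11, a regulator of the ON bipolar signal, from 239 ± 18.7 to 369 ± 47.5. Of 18 amacrine and horizontal cell genes 6 rose and 5 fell. Calb1, calbindin, and Gad1, which makes GABA, rose from 87.3 ± 10.8 to 179 ± 21.8 and from 367 ± 48.8 to 520.2 ± 79.8. The factors Prox1 and Tfap2b fell from 120.2 ± 20.7 to 65.7 ± 4.32 and from 291 ± 43.4 to 200.4 ± 28.8, and the neuropeptide gene Npy from 519 ± 33.2 to 194 ± 12.4. Of 10 ganglion cell genes 5 rose and 3 fell, with Nefh, heavy neurofilament, and Scn1a, a sodium channel, from 93.2 ± 4.22 to 144 ± 22.4 and from 51.0 ± 1.38 to 91.8 ± 10.9, and the factor Ebf3 from 189 ± 10.4 to 122 ± 9.33. The difference between genotypes passed in limma for 0 of the 18 and 0 of the 10, with 2 and 2 at an unadjusted p under 0.05.

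Clock and activity genes rose more often than they fell. Of 13 circadian genes 9 rose and 2 fell, with a median of 0.50, and in wild type 9 rose and 1 fell. Bhlhe40, a repressor in the clock, stood at 23.9, 19.5, 19.6 and 21.2 at P10 and 87.2, 72.4, 61.7 and 78.5 at 2 months, and Dbp, a clock output factor, at 80.4, 81.9, 90.6 and 83.5 at P10 and 215, 204, 236 and 249.6 at 2 months (log2 1.42 ± 0.10, adjusted p = 6.60e-12). The repressors Nr1d1 and Nr1d2 rose from 88.6 ± 7.58 to 209 ± 17.9 and from 185 ± 18.3 to 322 ± 43.8, while Arntl, the activator Bmal1, fell from 257 ± 15.4 to 157 ± 14.5. Of 17 immediate early genes 6 rose and 1 fell, and in wild type 8 rose and 2 fell. Fos stood at 22.0, 25.2, 21.1 and 31.1 at P10 and 62.7, 61.9, 79.0 and 151 at 2 months, and Egr1 at 211, 271, 236 and 245 at P10 and 278, 374, 586 and 764 at 2 months, so the adult arrays spread more than the P10 arrays. In wild type Fos rose further, from 17.6 ± 2.13 to 167 ± 21.1 (difference -1.495 ± 0.26, adjusted p = 5.89e-04). The labels give no hour or light state at collection, and their part in these values was not tested.

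Many of the changes were shared with wild type. Of the 768 genes that rose in the knockout 452 also rose in wild type, which is 58.9% of the knockout genes and 65.4% of the wild-type genes. Of the 1077 that fell, 575 also fell in wild type, 53.4% and 76.1% of each set. Opposite calls were rare, with 10 genes higher in the knockout and lower in wild type and 9 the reverse. Among the 121 positive differences, 55 genes rose in the knockout and were not called in wild type, 30 rose in both, 18 fell in wild type alone, 10 went opposite ways and 8 fell in both. Among the 110 negative differences, 39 rose in wild type and were not called in the knockout, 31 fell in the knockout alone, 25 rose in both, 9 went opposite ways and 6 fell in both.

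**Figure D4:**
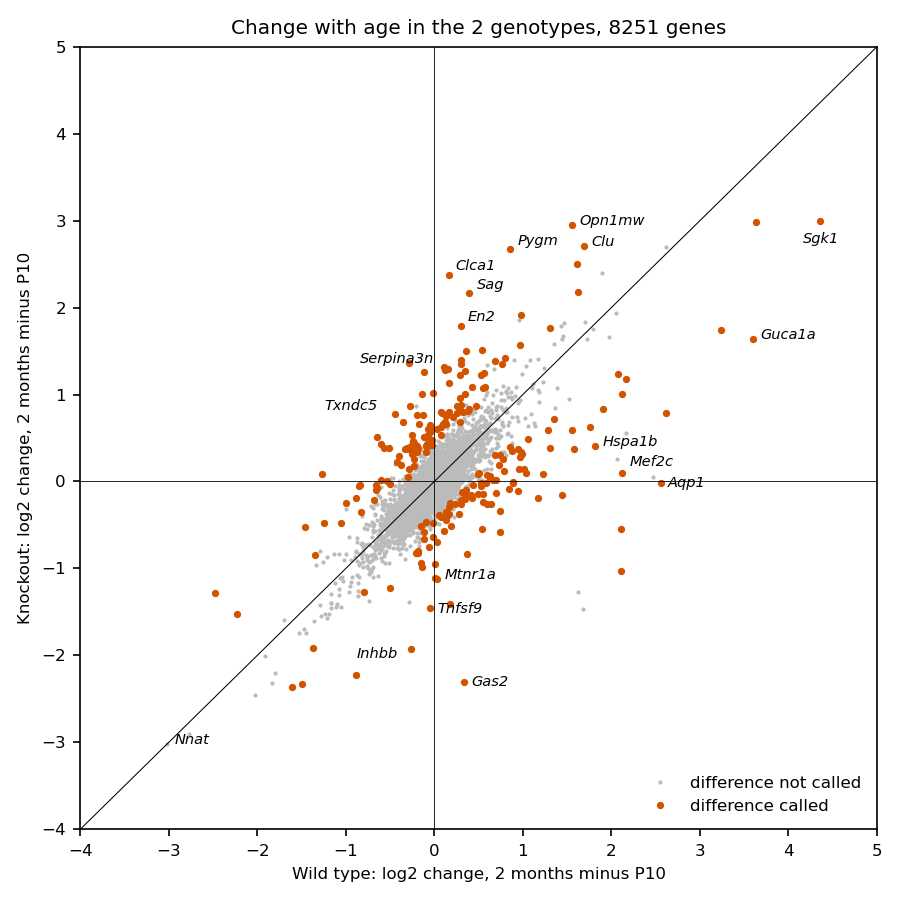
Log2 change from P10 to 2 months of 8251 genes in wild-type (horizontal) and knockout (vertical) retina, with genes whose difference was called in orange and a diagonal of equal change. Clca1, Pygm, Sag and En2 lie well above the diagonal, and Gas2, Aqp1, Mef2c and Guca1a well below it.

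Several photoreceptor genes changed by different amounts. Sag rose by 2.17 ± 0.17 in the knockout and stood in wild type at 4037 ± 373 at P10 and 5322 ± 614 at 2 months, a difference of 1.77 ± 0.25 (adjusted p = 2.30e-05). Opn1mw rose in both, from 157 ± 39.0 to 454 ± 47.4 in wild type, with a difference of 1.39 ± 0.24 (adjusted p = 4.18e-04). Gnb3 fell in wild type, from 1284 ± 187 to 866 ± 119, and the difference was 0.96 ± 0.21 (adjusted p = 0.00643). Guca1a went the other way: it rose from 286 ± 45.9 to 3475 ± 547 in wild type, a difference of -1.97 ± 0.27 (adjusted p = 2.17e-05). Pdc and Rom1 rose more in the knockout, with differences of 1.05 ± 0.15 and 0.71 ± 0.16 (adjusted p = 2.27e-05 and 0.00765), while a further probe set of each gave 0.078 and 0.46 and was not called. For the factors Crx and Neurod1 the differences were 0.48 ± 0.11 and 0.70 ± 0.14 (adjusted p = 0.0109 and 0.00308), and Neurod1 fell in wild type. Opn1sw, Gnat2, Abca4 and Tulp1 had differences of 0.16 ± 0.17, 0.075 ± 0.18, 0.31 ± 0.13 and 0.37 ± 0.11, none of which passed.

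Some genes were highest in the knockout at P10 and fell toward the wild-type level by 2 months. Gas2, which binds actin and microtubules, stood at 259, 396, 194 and 214 at P10 and 46.0, 74.2, 39.1 and 53.7 at 2 months in the knockout and 20.3 ± 3.46 at P10 and 25.5 ± 2.35 at 2 months in wild type. The difference in age effect was -2.64 ± 0.28 (adjusted p = 2.31e-07), and a dimmer probe set was not called in the knockout (log2 -0.28). Inhbb, the beta B subunit of activin and inhibin, stood at 39.1, 43.3, 39.5 and 42.2 at P10 and 10.8, 11.01, 10.6 and 10.7 at 2 months, against 13.4 ± 1.13 at P10 and 11.2 ± 0.785 at 2 months in wild type (difference -1.67 ± 0.13, adjusted p = 7.27e-10). Its adult knockout values were at the wild-type level. Tnfsf9, the ligand of the immune receptor 4-1BB, stood at 213, 148, 189 and 176 at P10 and 63.7, 65.6, 66.9 and 65.0 at 2 months, against 65.8 ± 5.24 at P10 and 63.6 ± 1.59 at 2 months (difference -1.42 ± 0.12, adjusted p = 6.04e-09). Mtnr1a, a melatonin receptor, stood at 53.4, 54.0, 55.8 and 62.6 at P10 and 25.5, 27.4, 26.9 and 23.6 at 2 months, against 24.1 ± 1.89 at P10 and 24.6 ± 0.417 at 2 months (difference -1.16 ± 0.12, adjusted p = 2.24e-07). In all 4 genes the knockout ages did not overlap, which was required of Gas2 and Inhbb as members of the 15 largest falls. The same held for 2018 of all 8251 genes.

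Another set rose in wild type and not, or less, in the knockout. Aqp1, a water channel, stood at 42.3, 52.0, 51.0 and 53.2 at P10 and 48.4, 54.0, 48.0 and 45.2 at 2 months in the knockout, flat across the 8 arrays, and rose from 67.6 ± 9.52 to 397 ± 49.6 in wild type (difference -2.58 ± 0.16, adjusted p = 5.50e-11). A further, dimmer probe set of Aqp1 gave a difference of -0.14 and was not called. Mef2c, a transcription factor of neurons and muscle, stood at 30.4 ± 2.47 at P10 and 32.6 ± 4.03 at 2 months and rose from 30.9 ± 5.16 to 135 ± 25.3 in wild type (difference -2.03 ± 0.20, adjusted p = 6.90e-08), and its 3 further probe sets were called the same way. Agpat3, which acylates phospholipids, stood at 289 ± 12.5 at P10 and 268 ± 21.1 at 2 months, against a rise from 316 ± 5.48 to 610.0 ± 50.2 (difference -1.05 ± 0.10, adjusted p = 8.02e-08). Pdia5, a disulfide isomerase, did likewise, at 36.7 ± 3.13 at P10 and 32.0 ± 1.02 at 2 months against 42.1 ± 1.17 at P10 and 95.03 ± 11.8 at 2 months (difference -1.36 ± 0.12). Hspa1b rose from 74.9 ± 4.92 to 265 ± 13.3 in wild type (difference -1.41 ± 0.13, adjusted p = 2.16e-08). Sgk1, the largest rise in the knockout, was larger in wild type, from 22.99 ± 2.29 to 474 ± 52.1 (difference -1.37 ± 0.15, adjusted p = 7.75e-07). Among rod genes, Cnga1 and Reep6 had differences of -0.94 ± 0.14 and -0.64 ± 0.13.

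In a further set the difference was positive, mostly with a rise in the knockout and a smaller rise, no call or a fall in wild type. Clca1 stood at 81.3, 77.8, 82.1 and 102 at P10 and 411, 474, 389 and 514 at 2 months, against 24.8 ± 2.84 at P10 and 27.8 ± 3.36 at 2 months in wild type (difference 2.22 ± 0.22, adjusted p = 1.49e-07). Pygm, described above, also rose in wild type, from 85.2 ± 1.62 to 155 ± 18.7 (difference 1.82 ± 0.22, adjusted p = 1.99e-06). En2, a homeobox gene of the midbrain and hindbrain, stood at 36.1, 33.1, 31.6 and 33.3 at P10 and 113, 122, 101 and 130.4 at 2 months. In wild type it rose less, from 32.0 ± 4.16 to 39.1 ± 2.07 (difference 1.496 ± 0.13, adjusted p = 1.21e-08). Clca1, Pygm and En2 had no overlap between knockout ages, as in 2018 of all 8251 genes. This was required of Clca1 and Pygm as members of the 15 largest rises. Ppp2r2b, a regulatory subunit of protein phosphatase 2A, rose from 531 ± 64.4 to 1267 ± 129.9 (difference 1.37 ± 0.14), and Chst2, a sulfotransferase, from 146 ± 7.45 to 247 ± 18.5 (difference 0.89 ± 0.11). Txndc5, Myo7a and Otud7b went opposite ways in the genotypes. Txndc5, a disulfide isomerase, rose from 378 ± 34.4 to 645 ± 33.3 in the knockout and fell from 321 ± 31.7 to 235 ± 10.4 in wild type (difference 1.22 ± 0.11, adjusted p = 1.09e-08). For Myo7a, a motor of photoreceptors and pigment epithelium, the knockout change was 0.51 ± 0.081 and the wild-type change -0.65 ± 0.081, and for the deubiquitinase Otud7b 0.69 ± 0.078 and -0.35 ± 0.078. Gldc, a glycine-degrading enzyme, stood at 100.3 ± 4.21 at P10 and 107 ± 10.6 at 2 months in the knockout and fell from 222 ± 36.0 to 91.9 ± 13.3 in wild type (difference 1.36 ± 0.14).

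**Figure D5:**
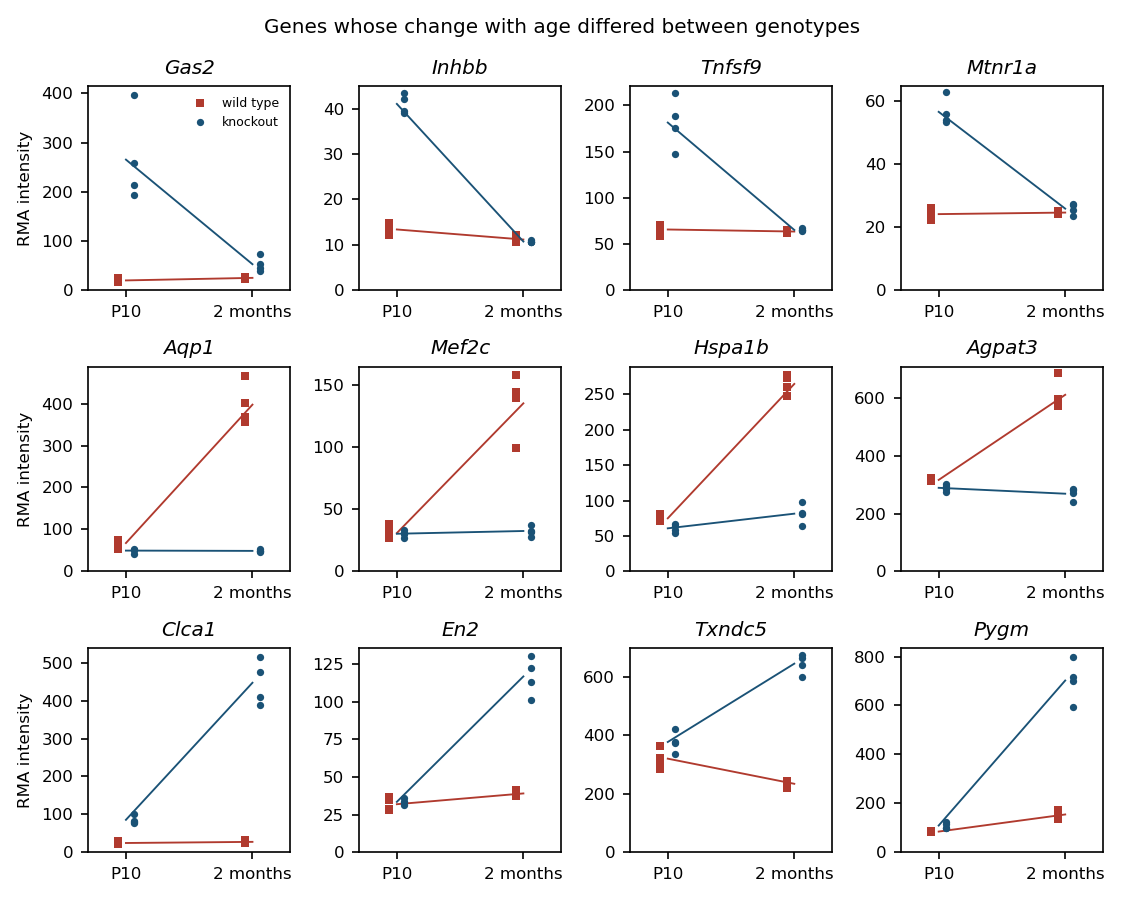
Deposited RMA intensity (linear axis from 0) of 12 genes in each wild-type (red squares) and knockout (blue circles) array at P10 and 2 months, with lines joining the means of 4 arrays. The knockout P10 values stand highest in the top row, the wild-type 2 month values in the middle row and the knockout 2 month values in the bottom row.

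Genes of tissues next to the retina varied between arrays. Of 11 lens genes 0 were called in the knockout in limma, and 2 had an unadjusted p under 0.05. Crygb, a lens crystallin with near-identical relatives, stood at 52.1, 124, 15.3 and 19.6 at P10 and 14.4, 17.7, 20.8 and 21.3 at 2 months, and Cryaa, another, at 247, 285, 139 and 140.4 at P10 and 130.5, 252, 293 and 296 at 2 months, so that P10 replicates 1 and 2 were higher than replicates 3 and 4. The summed lens list ran from 933 to 3353 at P10 and from 868 to 1444 at 2 months. Without P10 replicates 1 and 2 the count of probe sets called between the knockout ages was 1617 in place of 2389, and of the genes named Cd14 and C1qa lost their calls (adjusted p = 0.0945 and 0.222). In wild type 5 of the 11 lens genes rose, or 8 with the replicate number as a block, and 3 differed negatively between genotypes. Of 10 pigment epithelium genes 3 rose, Ttr, Rdh5 and Rgr, from 53.6 ± 2.29 to 92.5 ± 4.96, from 86.6 ± 5.28 to 131 ± 10.7 and from 23.8 ± 1.55 to 33.8 ± 3.48. The list's array medians were higher in all 4 adult arrays, by 0.38 on the log2 scale (exact two-sided permutation p = 0.0286, adjusted p = 0.10), and the sums ran from 675 to 767 and from 772 to 853. Their part in the other results was not tested. Of 7 oligodendrocyte genes 0 were called in limma, 1 of them at an unadjusted p under 0.05, with Mbp at 107 ± 6.78 at P10 and 101 ± 2.90 at 2 months and Mag at 389 ± 33.2 at P10 and 428 ± 46.2 at 2 months. The X-linked Xist stood at 287, 182, 168 and 213 at P10 and 8.90, 9.23, 209 and 179 at 2 months and the Y-linked Eif2s3y at 21.0, 77.9, 77.0 and 17.0 at P10 and 80.5, 88.9, 21.6 and 21.8 at 2 months. P10 replicates 2 and 3 were high for both, and adult replicates 1 and 2 were low for Xist and high for Eif2s3y, so the arrays differed in sex-linked RNA. Xist did not pass (adjusted p = 0.0769) but passed without 2 month replicates 3 or 4 (adjusted p from 0.0172 to 0.0212) and with array weights (adjusted p = 0.0115).

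Probe sets of the same gene did not always pass together. Of the called genes named above with a further probe set, 26 of 44 had 1 that was not called, and 0 had 1 called the opposite way. Those of Hk2, Clca1, Gas2, Myb and Mycn are given above. The further probe sets that were not called had log2 changes of -0.13 and -0.17 for Bcl2l11, -0.062 for Ccnd1, 0.054 and -0.070 for Cd44, 0.079 for Ctsb, 0.13 for Egr1, 0.30 for Folh1, 0.072 for Fos, 0.14 for Glul, 0.13 for H2-K1, 0.044 for Hsp90aa1, 0.028 and -0.13 and 0.031 and -0.043 for Hspa4, 0.10 for Nes, 0.15 for Pdc, 0.33 for Pde6b, -0.10 and -0.28 for Prdx2, -0.14 for Rgs11, 0.17 for Rora, 0.37 for Srxn1, 0.033 for Syt2, -0.014 for Thra and 0.075 for Vamp1. The same held for the difference between genotypes. Of 18 genes with a called difference and a further probe set, 13 had 1 or more on which it was not called, 1 of them with the opposite sign, and 0 had 1 called the opposite way. Beside Gfap, H2-K1, Pdc, Rom1 and Aqp1, given above, the uncalled differences were -0.12 and -0.11 for Bcl2l11, 0.42 for Chst2, 0.25 for Clca1, -0.71 for Crygb, -0.013 for Fos, -0.22 for Gas2, -0.27 for Hk2 and 0.13 for Mycn.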

How the data were processed

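The deposited intensity values are linear, with 1 value for each probe set on each array. The submitters' processing notes name RMA, and its version and the set of arrays it was run on are not given in the sources used here. RNA was extracted with Trizol and labelled with biotin, per the labels. The table lists 12488 probe sets, and its 66 array controls were dropped. A single gene symbol was attached to 10833 of the others, several to 396 and none to 1193, and a gene was represented by its brightest probe set over the 24 arrays. Symbols came from the platform annotation, updated by gene number to RefSeq on GRCm38.p6.

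One limma 3.58.1 model (R 4.3.3) with 6 group means was fitted to log2 intensity of the 24 arrays with lmFit and eBayes, with Benjamini-Hochberg adjustment over 12422 probe sets per contrast. The steps were tested on simulated data. The titles give replicate numbers, and the deviations of same-numbered wild-type arrays of the ages correlated at 0.199, 0.119, 0.397 and 0.499. All were over 0.1, so these numbers pair the wild-type samples by that check. The main model did not use this pairing, so wild-type calls and genotype differences are unpaired unless a block is named. The 31 lists held 765 genes, of which 601 were measured. The comparison, members and lists were chosen with earlier results of these data known. Genes named were taken from the 15 largest rises and falls without overlap between ages. To these were added the 8 smallest adjusted p in each direction of the genotype difference, and Nrl. List members were ranked, called ones first and then by size of change, up to 6, or 15 for photoreceptor, glial and immune lists. This rule gave 261 genes and the text names 182, so some that met it are left out. Lists are described by counts and medians, without a test. Carry-over and quality measures were compared by exact permutation of 4 against 4 arrays. Alternatives were quantile normalisation, median centring, a filter at the 40th percentile, a pseudocount of 16, trended and robust moderation, array weights, only the compared arrays, a stricter threshold, averaged probe sets, a replicate block and leaving out arrays. Plots used matplotlib 3.10.9 under Python 3.11.15.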

Additional observations from a re-analysis of the deposited data

Results flagged for a closer look

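A difference between genotypes in the change from P10 to 2 months was called by limma for 62 of the 182 genes named. Over all genes it was called for 231 of 8251. Some of the named genes were chosen for this difference or for a large change with age, so these shares are not like for like. Values are knockout minus wild type on the log2 scale. For photoreceptor genes they were 1.77 for Sag, 1.39 for Opn1mw, 1.05 for Pdc, 0.96 for Gnb3, 0.71 for Rom1, 0.70 for Neurod1 and 0.48 for Crx, and on the negative side -1.97 for Guca1a, -0.94 for Cnga1, -0.64 for Reep6 and -2.03 for Mef2c. For glial genes they were 1.21 for Serpina3n, 1.13 for A2m, 1.10 for Osmr, 1.02 for Clu, 0.97 for S100a6, 0.94 for Cebpd, 0.90 for Aqp4, 0.70 for Crym, 0.63 for Gfap and 0.53 for Socs3. For immune genes they were 0.71 for Ctss, 0.67 for Ifitm3, 0.66 for B2m, 0.59 for H2-K1, 0.56 for C1qc, 0.46 for C1qa, 0.45 for Serping1 and 0.44 for Ifit3, and on the negative side -1.42 for Tnfsf9. For stress and metal genes they were 1.14 for Hsph1, 0.55 for Mt1 and 0.46 for Mt2, against -1.13 for Hspa1a, -1.41 for Hspa1b, -0.67 for Bcl2l11 and -0.54 for Ndrg1. For genes of growth they were -2.64 for Gas2, -1.67 for Inhbb, -1.34 for Mest, -0.83 for Mycn and -0.75 for Cd24a. For metabolism and clock they were 1.82 for Pygm, 1.36 for Gldc, 0.63 for Dbp, 0.89 for Chst2, -0.65 for Hk2 and -1.05 for Agpat3. The remaining values were 2.22 for Clca1, 1.496 for En2, 1.37 for Ppp2r2b, 1.22 for Txndc5, 1.16 for Myo7a, 1.04 for Otud7b, 0.71 for Ttr and 0.67 for Dlg4, and on the negative side -2.58 for Aqp1, -1.495 for Fos, -1.37 for Sgk1, -1.36 for Pdia5, -1.16 for Mtnr1a and -3.14 for Crygb.

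Among these, 7 lost the call when single arrays were left out. Beside Cebpd, Socs3 and Ifit3, given with the results, they were Mt1 without knockout P10 replicates 2, 3 or 4, knockout 2 month replicates 1 or 4, wild-type P10 replicates 1 or 3 or wild-type 2 month replicates 2 or 3 (adjusted p from 0.0507 to 0.0875), Mt2 without knockout P10 replicates 2, 3 or 4, knockout 2 month replicates 1, 2 or 4, wild-type P10 replicates 1, 2 or 3 or wild-type 2 month replicates 1, 2 or 4 (adjusted p from 0.0598 to 0.112), Hk2 without knockout 2 month replicates 1 or 2, wild-type P10 replicate 3 or wild-type 2 month replicate 4 (adjusted p from 0.0501 to 0.0593), and Crygb without knockout P10 replicates 1 or 2, knockout 2 month replicates 1, 2, 3 or 4, wild-type P10 replicates 2, 3 or 4 or wild-type 2 month replicates 3 or 4 (adjusted p from 0.0538 to 0.118).

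A single array stood apart from the other three of its group in 14 of 364 groups examined, where chance gives about 5 in 100. At 2 months these were replicate 1 for Gnat1 (67.8), A2m (66.4) and C1qa (101), replicate 2 for Abca4 (733) and Car8 (229), replicate 3 for Timp3 (180.4), and replicate 4 for Cdk4 (324), Cdkn1c (75.9), Col4a1 (146) and Vtn (1360). At P10 they were replicate 1 for Pde6b (39.5) and Snap25 (1284), replicate 2 for Eno2 (507) and replicate 3 for Vtn (195). The 2 month replicate 4 held 4 of the 14.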

How the results depend on the processing

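For knockout retina between P10 and 2 months, 2389 probe sets were called, and 2067 (without P10 replicate 4) to 2320 (without 2 month replicate 4) when each array was left out in turn. The difference between genotypes was called for 295, with 240 to 303 under the same omissions, and the wild-type change for 1866, with 1529 to 1753. The difference was called for 475 with array weights and for 191 at an adjusted p under 0.01. Same-numbered arrays of the ages had deviation correlations of 0.354, 0.376, 0.192 and -0.014 in the knockout. There 1 pair did not deviate together, and the numbers were not taken to pair the samples. Yet 3 of 4 replicates correlated best with their own number, as in wild type. With the replicate number as a block the counts were 2949 for the knockout, 2526 for wild type and 480 for the difference. The block gained the knockout calls of Gnb3, Gnat1, Crygb and Xist (adjusted p = 3.58e-04, 0.00697, 0.0162 and 0.00199), and array weights those of Gnat1 and Xist (0.0232 and 0.0115). In wild type the block gained the calls of 13 of the 182 genes named and lost 0. With it Sag, Gas2, Osmr, Ifitm3, Gbp3, Irf9, Hsp90aa1 and Rgr were called higher there, and Crx, Nr2f1, Inhbb, Hsph1 and Xist lower. The cause of these moves was not tested. Leaving out P10 replicates 1 and 2 (chosen after seeing the data) gave 1617 calls with 6 knockout arrays left, and Cd14 and C1qa were then not called (adjusted p = 0.0945 and 0.222). These 2 arrays had the highest lens values at P10 only. By the log2 median of the lens list, 2 month replicates 2, 3 and 4 (6.76, 7.01 and 6.81) lay above P10 replicate 1 (6.45) and stayed in. A filter on dim probe sets left fewer members to call, with 8 in place of 13 reactive glia genes higher, 9 in place of 14 antigen presentation genes higher and 4 in place of 7 vascular genes lower, and with 5 in place of 3 sterol genes lower, as also with the pseudocount of 16. Averaging the probe sets of a gene gave 4 in place of 8 cell cycle genes lower and 5 in place of 3 sterol genes higher. C1qa also lost its knockout call with trended moderation, array weights or only the compared arrays (adjusted p = 0.0507, 0.0875 and 0.0538). Of the differences between genotypes, median centring ended that of Ndrg1 (adjusted p = 0.0544), only the compared arrays those of Mt2 and Ifit3 (0.0582 and 0.0548), trended moderation those of Ifit3 and Crygb (0.0531 and 0.165), the block that of Mt2 (0.0536) and the pseudocount that of Crygb (0.0668). No called value of the named genes changed sign under any alternative. Intensity near background and 4 arrays a group limit the precision.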
